A study of Mus musculus with 191 samples.

Results

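The paraoxonases Pon1, Pon2 and Pon3 and the cholinesterases Ache and Bche were followed in mouse lung as the genes of 2 enzyme families that meet organophosphorus compounds. They were chosen by name, with earlier results of these data known, as 5 of 18194 genes that had a probe set annotated to a single symbol. The 5 genes had 10 such probe sets, and each gene is represented by the one with the highest mean level. Testing required a level over the overall median of the values on 3 arrays or more, which 13524 genes met, among them 4 of the 5 and not Ache. The values that led to their choice are the differences between exposed and control lungs, so those differences are described here with no p-value for these genes.

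Female mice of the hybrid B6C3F1 strain, a standard of cancer bioassays, were exposed for 13 weeks and were 18 weeks old when the right lobe of the lung was taken, and its RNA was measured on Affymetrix mouse expression arrays. The 133 exposed arrays formed 34 groups for 26 chemicals, and the 58 control arrays formed 14 vehicle sets, in 4 array batches named in the titles. Groups held 3 to 5 arrays, most labelled with an animal number of their own, and this number limits the precision. Naphthalene, the main component of mothballs, was inhaled at 0.5, 3, 10, 20 or 30 ppm (4 arrays each), and its air controls of the same batch were the sets ACO3 (4 arrays), ACO4 (5) and ACO5 (5). The insecticide malathion (MALA, 14800 ppm in the treatment notes, another dose in the titles) and the insecticide diazinon (DIAZ, 200 ppm) were given in rodent chow and set against the chow set FCO2. The flame retardant tris(2,3-dibromopropyl)phosphate (TDPP, 1000 ppm) was given in chow and set against the chow set FCO1, with 4 arrays in each of these groups. Methylene chloride was inhaled at 100, 500, 2000, 3000 or 4000 ppm (5 arrays at 100 ppm, 4 at the others) and vanadium pentoxide (VANP) at 2 mg/m3 (4 arrays), both against the same 3 air sets. Coumarin (COUM, 200 mg/kg) and 1,2-dibromoethane (DBET, 62 mg/kg) were given by gavage in corn oil (4 arrays each) and set against the corn oil sets CCO2 and CCO3 (4 each).

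Pon1 encodes a lactonase and esterase that circulates on high-density lipoprotein, is made chiefly in liver, and hydrolyses the oxon forms of several organophosphorus insecticides, that of diazinon among them. Pon2 encodes an intracellular lactonase found in many tissues and Pon3 a lactonase that is also carried on high-density lipoprotein. Ache encodes acetylcholinesterase, which ends acetylcholine signalling and is the target that organophosphorus oxons inhibit as a protein. Bche encodes butyrylcholinesterase, a related esterase of plasma and tissues that binds the same oxons. Naphthalene is known in mouse lung for injury to club cells, which line and secrete into the small airways, and in which the cytochrome P450 Cyp2f2 oxidises it to reactive products. In a whole lobe, fewer cells of a type and less RNA per cell cannot be told apart.

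The 3 paraoxonase genes lie beside each other on chromosome 6 in the order Pon1, Pon3, Pon2, all on the minus strand, with Ache on chromosome 5 and Bche on chromosome 3. All 5 genes matched an entry of the RefSeq promoter table, in build GRCm38.p6, which holds 250 bases before and 50 after a gene start. The 3 paraoxonase promoters are shown because these neighbours differed in their values in the naphthalene and malathion groups, and capitals mark each CG dinucleotide.
Pon1, chr6:5193897-5194196, minus strand: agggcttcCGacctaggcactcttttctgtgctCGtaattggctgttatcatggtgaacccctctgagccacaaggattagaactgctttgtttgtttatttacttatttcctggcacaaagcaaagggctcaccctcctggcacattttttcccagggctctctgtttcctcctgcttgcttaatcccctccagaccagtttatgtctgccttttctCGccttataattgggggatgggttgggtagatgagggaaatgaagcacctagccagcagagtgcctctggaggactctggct
Pon3, chr6:5256184-5256483, minus strand: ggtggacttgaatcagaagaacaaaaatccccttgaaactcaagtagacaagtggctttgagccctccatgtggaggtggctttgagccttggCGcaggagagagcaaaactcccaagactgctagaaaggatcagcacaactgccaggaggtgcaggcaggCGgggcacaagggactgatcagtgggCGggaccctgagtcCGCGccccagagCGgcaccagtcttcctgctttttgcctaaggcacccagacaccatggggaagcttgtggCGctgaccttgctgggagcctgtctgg
Pon2, chr6:5298291-5298590, minus strand: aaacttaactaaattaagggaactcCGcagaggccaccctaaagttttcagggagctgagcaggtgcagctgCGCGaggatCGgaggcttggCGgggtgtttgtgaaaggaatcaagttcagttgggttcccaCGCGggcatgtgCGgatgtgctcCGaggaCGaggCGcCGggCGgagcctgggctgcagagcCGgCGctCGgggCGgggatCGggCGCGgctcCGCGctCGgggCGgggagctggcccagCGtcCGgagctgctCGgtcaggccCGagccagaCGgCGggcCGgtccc
The Pon1 window holds 3 CG dinucleotides, that of Pon3 7 and that of Pon2 31, against a median of 7 over 32851 promoters, and their GC contents are 49.3%, 57.7% and 67.7%. The Ache window holds 30 CG dinucleotides and that of Bche 8. On both strands, GCGTG, the core bound by the aryl hydrocarbon receptor, has 0 matches in the Pon1 and Pon3 windows and 1 in that of Pon2, and 32.4% of all promoters hold it. TGACNNNGC, the antioxidant response core, has 0 matches in the Pon1 window and 1 each in those of Pon3 and Pon2, and 12.4% of all promoters hold it. The GC box GGGCGG, which shares no full motif with the others, has 0 matches in the Pon1 window, 1 in that of Pon3 and 3 in that of Pon2, and 35.7% of all promoters hold it.

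Levels are the deposited log values, centred on each array, where 0 is the mean of all probe sets of an array and the base is taken as 2. Pon1 had a mean level of 3.60 over all arrays, above the mean of 98.3% of probe sets. Pon2 averaged 2.15, above 93.3% of probe sets, and Pon3 averaged 2.09, above 93.0%. Ache averaged -0.79, with 30.2% of probe sets lower, and 2 arrays exceeded the overall median of -0.386. Bche averaged -0.36, with 51.0% of probe sets lower, and 108 arrays exceeded it. These are levels of different probe sets, so they do not rank the genes by RNA amount. Pon2 had a further probe set at a mean level of 1.28 whose values followed the first with a Pearson r of 0.95 over all arrays, and 2 more at -0.75 and -0.81 that did not. The other Bche probe sets averaged -0.94 and -1.12, and 0 arrays exceeded the overall median in either. Their values followed the first Bche probe set weakly, with a Pearson r of 0.25 and 0.24 over all arrays. The lung label was borne out by Sftpc, Scgb1a1 and Ager, markers of alveolar type 2, club and alveolar type 1 cells, each above 99.9% of genes in mean level.

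Pon1 fell in lungs of mice that inhaled 20 or 30 ppm naphthalene, and at 30 ppm it was at its lowest in the series. The level was 3.82, 3.84, 3.92 and 4.01 on the 4 arrays at 0.5 ppm, 3.62, 3.89, 3.93 and 3.95 at 3 ppm, and 3.07, 3.21, 3.47 and 3.57 at 10 ppm. It was 2.00, 2.03, 2.17 and 2.49 at 20 ppm, and 1.39, 1.45, 1.74 and 1.79 at 30 ppm. On the 14 air arrays the lowest level was 3.26, the median 3.64 and the highest 4.68. All 8 arrays at 20 and 30 ppm lay below every air array, and the ranges at 10, 20 and 30 ppm did not overlap each other. Those at 0.5 and 3 ppm overlapped each other and the air range, and that at 10 ppm lay below both of them and overlapped the air range.

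The log2 difference in Pon1 from the mean of the 3 air sets was 0.20 ± 0.17 at 0.5 ppm, 0.15 ± 0.17 at 3 ppm, -0.37 ± 0.17 at 10 ppm, -1.52 ± 0.17 at 20 ppm and -2.11 ± 0.17 at 30 ppm (± SE, limma fit of all arrays, n = 4 against 14). With base 2 these are 2.87-fold lower at 20 ppm and 4.31-fold lower at 30 ppm. A difference passed the threshold where the Benjamini-Hochberg adjusted p of limma was below 0.05 with 1 sign throughout, for each of the control sets that shared its vehicle and batch. Of the 4 genes tested Pon1 alone passed it at 20 and 30 ppm, and none of the 4 did at 0.5, 3 or 10 ppm. Over all 13524 genes 2.11% passed at 20 ppm and 2.05% at 30 ppm, against 0.37% at 0.5 ppm, 0.355% at 3 ppm and 0.555% at 10 ppm. As this contrast chose the genes, nothing is read from that count.

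**Figure D1:**
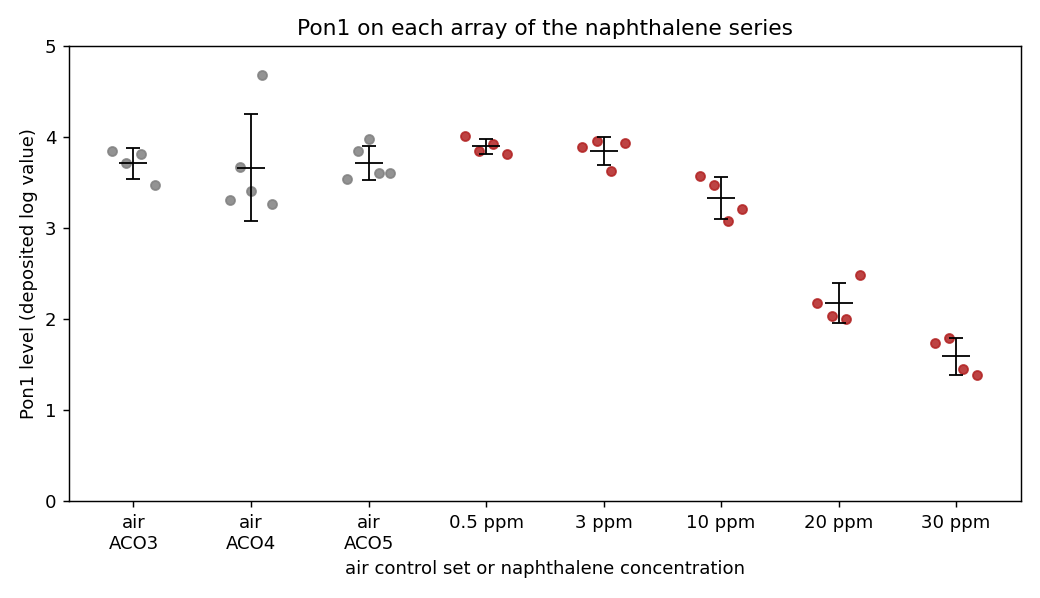
The plot gives the level of Pon1 (vertical axis, deposited log value) on each array of the 3 air sets and of 5 naphthalene concentrations in ppm, with points for arrays and bars for the mean and SD. The 4 arrays at 30 ppm sit between 1.39 and 1.79 and the 4 at 20 ppm between 2.00 and 2.49, all below the lowest air array at 3.26.

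Set against each air set alone, the Pon1 difference at 30 ppm was -2.12 from ACO3, -2.07 from ACO4 and -2.13 from ACO5. At 20 ppm it was -1.54, -1.49 and -1.54 from the same sets. The fitted change of Pon1 from 0.5 to 30 ppm used the 20 exposed arrays and linear concentration. It was -2.47 ± 0.12 on the log2 scale, the lowest of the 13524 genes tested. As the genes were chosen with earlier results of these data known, nothing is read from that rank. Pon2 changed by -0.19 ± 0.08 over the same range and also passed the threshold of the trend, as 40.8% of all genes did, but was -0.03 with the air arrays added at 0 ppm, -0.06 after quantile normalization and -0.08 with each array scaled to the mean SD, and passed under none of these 3. The other fitted changes were -0.01 ± 0.08 for Pon3, 0.08 ± 0.04 for Ache, which was below the filter, and -0.11 ± 0.06 for Bche. RNA quality also differed along the series, as the excess of the 3' over the 5' signal of beta-actin on the log2 scale. Its mean was 0.76 at 0.5 ppm, 0.84 at 3 ppm, 0.50 at 10 ppm, 0.55 at 20 ppm and 0.55 at 30 ppm. In the air sets it was 0.61 to 0.66. Its part in the fitted changes was not tested.

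The neighbours Pon2 and Pon3 did not pass the threshold at any naphthalene concentration. Pon2 was at 1.94, 2.05, 2.22 and 2.24 on the 30 ppm arrays, against 1.66 to 2.59 with a median of 2.08 on the air arrays, a difference of 0.04 ± 0.12. Pon3 was at 2.07, 2.12, 2.31 and 2.36 on the 30 ppm arrays, against 1.89 to 2.58 with a median of 2.10 on the air arrays, a difference of 0.07 ± 0.11. Both ranges lay inside those of the air arrays. Over the 5 concentrations the differences ran from -0.00203 to 0.28 for Pon2 and from -0.10 to 0.07 for Pon3.

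The cholinesterases were likewise within the air range. Ache was at -0.83, -0.78, -0.78 and -0.76 on the 30 ppm arrays, against -1.10 to -0.51 on the air arrays, a difference of 0.01 ± 0.06. Bche was at -0.48, -0.44, -0.44 and -0.23 on the 30 ppm arrays, against -0.66 to 0.23 on the air arrays, a difference of -0.10 ± 0.08. Their differences over the 5 concentrations ran from -0.08 to 0.04 for Ache and from -0.10 to 0.02 for Bche.

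Of 18 club cell markers, 3 rose and 4 fell at 30 ppm (limma, past the threshold), with a median log2 difference of -0.11 over the list and -0.05 over all genes. Gabrp, a GABA receptor subunit of airway epithelium, fell by 1.12 (-1.12 ± 0.14, limma adjusted p = 6.28e-07) and Cyp2f2 fell by 0.44 (-0.44 ± 0.08, limma adjusted p = 0.00362). The 3 that rose were Retnla, a secreted resistin-like protein (1.52 ± 0.33), Krt15, a basal keratin (0.97 ± 0.12), and Upk3a, a uroplakin (0.97 ± 0.07). Cldn10, a claudin of club cells, fell by 0.80 (-0.80 ± 0.13), and Hp, the plasma protein haptoglobin, fell by 0.50 (-0.50 ± 0.10). The secretoglobins Scgb1a1 and Scgb3a2, the main secreted club cell proteins, had differences of -0.32 ± 0.08 and 0.11 ± 0.10 and did not pass. Cldn10, Hp and the secretoglobins were named after their values were seen. The gene lists were chosen with earlier results of these data known. P-values of listed genes, here and below, are therefore a description and not support. The mean level of the list per array was 3.12 to 3.67 at 30 ppm and 3.20 to 3.41 at 20 ppm, against 2.97 to 3.65 on the air arrays. The part of these markers in the Pon1 difference was not tested.

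**Figure D2:**
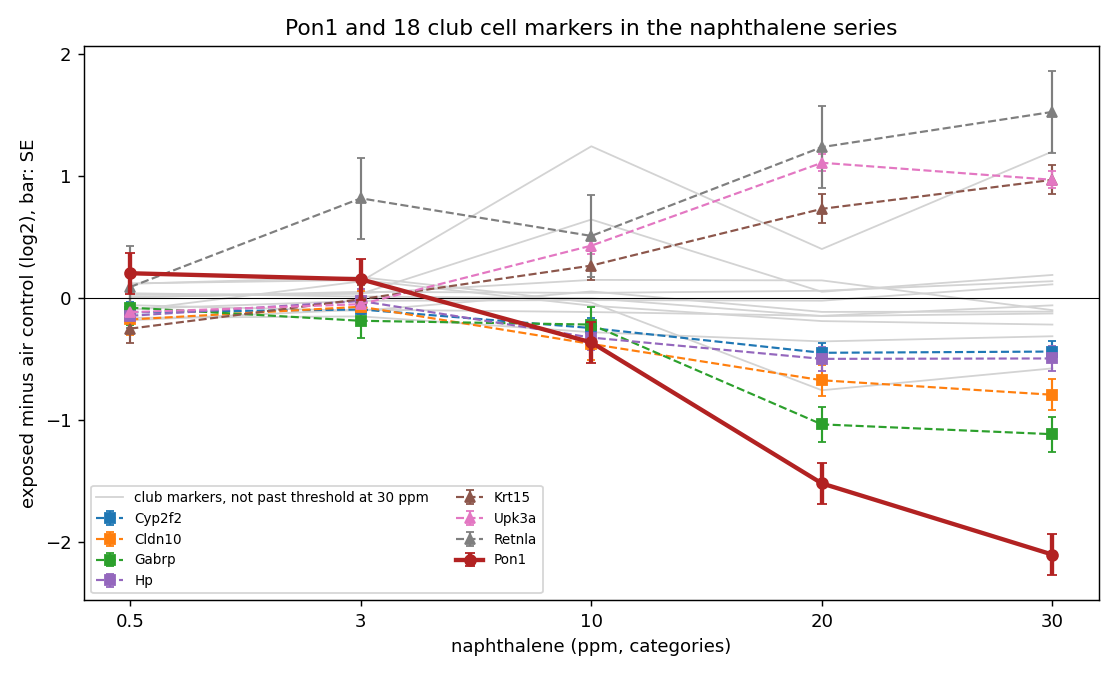
The plot gives the log2 difference from the mean of the 3 air sets (vertical axis, bars are SE) at each naphthalene concentration in ppm for Pon1 and all 18 club cell markers, in colour where past the threshold at 30 ppm and in grey without SE where not. At 30 ppm Pon1 is at -2.11, the falling markers Gabrp, Cldn10, Hp and Cyp2f2 are at -1.12, -0.80, -0.50 and -0.44, and the rising markers Retnla, Krt15 and Upk3a are at 1.52, 0.97 and 0.97.

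RNA typical of liver, where Pon1 is chiefly made, varied among arrays of the same group. The mean level of 10 liver markers was -0.69 to 0.45 at 30 ppm and 0.35 to 1.51 at 20 ppm, against -1.30 to 3.02 on the air arrays. The air array with the highest liver marker level, ACO4 replicate 4, was also the air array with the highest Pon1, at 4.68, and Pon3, at 2.58. Without it the Pon1 difference was -2.02 at 30 ppm and -1.44 at 20 ppm. Albumin, the defining liver gene, was at 0.36 to 1.82 on the 30 ppm arrays and at -0.64 to 4.93 on the air arrays. The part of liver RNA in the Pon1 difference was not tested.

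The next list held 20 tested genes of acetylcholine receptors and their modulators, acetylcholinesterase anchors, and choline transport and use. No gene that makes acetylcholine was among them. Of these, 0 passed the threshold at any naphthalene concentration. Among 36 other serine hydrolases and esterases, 2 rose at 30 ppm and 0 fell. They were the carboxylesterase Ces1g (1.12 ± 0.13, limma adjusted p = 2.62e-06) and the fatty acid synthase Fasn (0.77 ± 0.14, limma adjusted p = 0.00493). Ces1g also rose past the threshold at 10 ppm (1.14 ± 0.13), where Pon1 did not pass. Among 19 genes linked to high-density lipoprotein, the carrier of Pon1, the cell membrane cholesterol exporter Abcg1 fell (-0.61 ± 0.12) and 0 rose. Among 19 monooxygenases and linked enzymes, Cyp2s1 rose (0.59 ± 0.11) while Cyp4b1 (-0.47 ± 0.10) and Cyp2f2 fell. Of the remaining marker lists, 1 of 11 alveolar type 2 markers rose (Chil1, 0.72 ± 0.12). So did 2 of 10 macrophage markers (Ctsk, 0.75 ± 0.10, and Msr1, 0.18 ± 0.04). Past the threshold, 2 of 17 ciliated cell markers rose (Cfap126, 0.74 ± 0.12, among them). Every ciliated cell marker had a difference above 0, from 0.12 ± 0.07 for Dnah9 to that of Cfap126. So had every alveolar type 2 marker, from 0.07 ± 0.09 for Sftpc to that of Chil1. Every endothelial marker and every erythroid and megakaryocyte marker had a difference below 0. The median over all genes was -0.05. Of 7 nerve markers 1 rose, Uchl1 (0.38 ± 0.06), and 0 fell, with a median of -0.04 over the list and Stmn2, also named after its value was seen, at -0.42 ± 0.12. Of 8 adipose markers 1 rose, Scd1 (0.82 ± 0.12), and 0 fell, and of 12 endothelial markers 1 fell, the receptor Kdr (-0.60 ± 0.12), and 0 rose, with list medians of 0.21 and -0.33.

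Pon1 also fell in lungs of malathion-fed mice. The level was 2.41, 2.46, 2.59 and 3.15 on the malathion arrays, against 3.54, 3.60, 3.88 and 3.90 on the FCO2 chow arrays. Every malathion array lay below every chow array. The log2 difference was -1.08 ± 0.21 (n = 4 against 4), which is 2.11-fold lower with base 2. Pon1 alone of the 4 genes tested passed the threshold, as 1.71% of all genes did, and nothing is read from that count.

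In diazinon-fed mice Pon1 was at 3.49, 3.63, 3.63 and 3.80, against the same FCO2 arrays at 3.54 to 3.90. The ranges overlapped and the difference was -0.09 ± 0.21. In mice fed tris(2,3-dibromopropyl)phosphate it was at 3.15, 3.50, 4.15 and 4.34, against 3.43, 3.56, 3.56 and 3.84 on the FCO1 arrays. These ranges overlapped too, with a difference of 0.19 ± 0.21. None of the 4 genes tested passed the threshold in either group, where 0% and 0.00739% of all genes did. The malathion and diazinon differences share their control arrays, and the 3 compounds were given at unlike doses, so they are set side by side with no comparison.

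**Figure D3:**
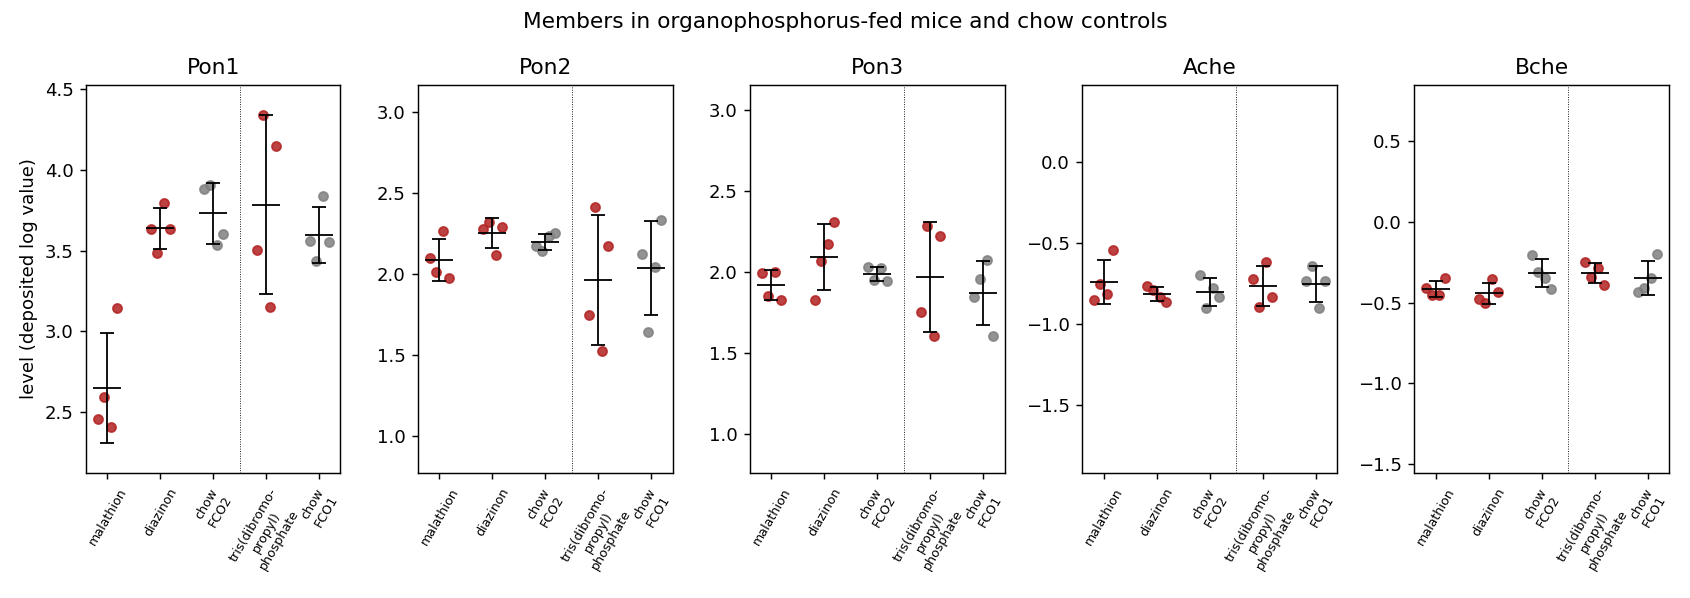
Each panel gives the level of 1 gene (vertical axis, deposited log value, same span in each panel) on the arrays of malathion, diazinon and their chow set FCO2, and of tris(2,3-dibromopropyl)phosphate and its chow set FCO1, with the mean and SD. The malathion arrays of Pon1 are at 2.41 to 3.15 and those of their chow set FCO2 at 3.54 to 3.90.

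The other 4 genes did not pass the threshold in these 3 groups, or, for Ache, were not tested. Pon2 was at 1.97, 2.01, 2.10 and 2.27 on the malathion arrays, against 2.14, 2.17, 2.23 and 2.25 on the FCO2 arrays. Pon3 was at 1.83, 1.85, 1.99 and 2.00 on the malathion arrays, against 1.94, 1.95, 2.02 and 2.03 on the FCO2 arrays. The differences were -0.11 ± 0.15 for Pon2 and -0.07 ± 0.14 for Pon3, with overlapping ranges. In the diazinon group Pon2 differed by 0.05 ± 0.15 and Pon3 by 0.11 ± 0.14, and in the tris(2,3-dibromopropyl)phosphate group by -0.07 ± 0.15 and 0.10 ± 0.14.

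Ache, whose protein is the target of these insecticides, was at -0.85, -0.82, -0.75 and -0.54 on the malathion arrays, against -0.90, -0.84, -0.78 and -0.70 on the FCO2 arrays. Bche was at -0.46, -0.45, -0.41 and -0.35 on the malathion arrays, against -0.41, -0.35, -0.31 and -0.21 on the FCO2 arrays. The ranges overlapped for both, and the differences were 0.06 ± 0.08 for Ache and -0.10 ± 0.10 for Bche. With diazinon they were -0.01 ± 0.08 and -0.12 ± 0.10. The arrays measure RNA, and the enzyme activity that the insecticides inhibit was not measured here.

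Of the 20 tested genes of acetylcholine receptors, acetylcholinesterase anchors and choline transport and use, 0 passed the threshold with malathion, diazinon or tris(2,3-dibromopropyl)phosphate. No gene that makes acetylcholine was among them. With malathion 1 of 36 other serine hydrolases and esterases rose, Ces1g (0.95 ± 0.17, limma adjusted p = 6.71e-05), and 0 fell. Ces1g also rose past the threshold with coumarin (2.23 ± 0.14), where Pon1 was lower. It did so with 1,2-dibromoethane too (0.96 ± 0.14), where Pon1 was higher. With vanadium pentoxide it was at -0.15 ± 0.13 and did not pass. These further groups were named after their values were seen, and a link between Ces1g and Pon1 was not tested. None of the 19 genes linked to high-density lipoprotein and none of the 19 monooxygenases and linked enzymes passed with malathion. Of the 18 club cell markers Upk3a rose (0.78 ± 0.09) and Scgb3a2 fell (-0.71 ± 0.12), with a median of -0.13 over the list and 0.01 over all genes. Of 17 ciliated cell markers 1 fell, the dynein light intermediate chain Dnali1 (-0.56 ± 0.13), and 0 rose. Of 7 nerve markers 1 rose, Uchl1 (0.27 ± 0.07), and 0 fell, with a median of 0.02 over the list. The club cell list averaged 3.06 to 3.49 on the malathion arrays, against 2.83 to 3.80 on the FCO2 arrays. The 10 liver markers averaged 0.31 to 1.53, against 0.62 to 1.74. The part of either in the Pon1 difference was not tested. None of the genes of these lists passed with diazinon or tris(2,3-dibromopropyl)phosphate.

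Across all 34 exposed groups, 6 of 136 pairs of a tested gene and a group passed the threshold, where 2.58% of all pairs of gene and group did. Pon1 passed in 5 groups, Pon3 in 1, and Pon2 and Bche in 0. These counts depended on the scaling: after quantile normalization Pon1 passed in 4 groups, Pon3 in 7, and Pon2 and Bche in 1 each. The 7 of Pon3 were ABDQ, COUM, NAPD and VANP, where it was higher, and IODO, TFEA and TFEL, where it was lower. With each array scaled to the mean SD, Pon1 passed in 3 groups, Pon3 in 5, and Pon2 and Bche in 1 each. In both, the group of Pon2 was IODO and that of Bche 4000 ppm methylene chloride. The typical size of a difference, as the median over groups without sign, was 0.22 for Pon1, 0.11 for Pon3, 0.10 for Pon2, 0.08 for Bche and 0.04 for Ache. Pon1 lay below its controls in 20 groups and above them in 14, from -2.11 at 30 ppm naphthalene to 0.80 with 1,2-dibromoethane. Its differences past 0.5 in size numbered 7, among them -0.57 ± 0.17 with 4000 ppm methylene chloride and -0.51 ± 0.21 with tetrafluororethane, which did not pass the threshold. Pon2 ran from -0.38 with iodoform (IODO, 93 mg/kg) to 0.28 with 0.5 ppm naphthalene, and Bche from -0.37 with 4000 ppm methylene chloride to 0.20 with N-methylolacrylamide (MACR, 50 mg/kg).

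**Figure D4:**
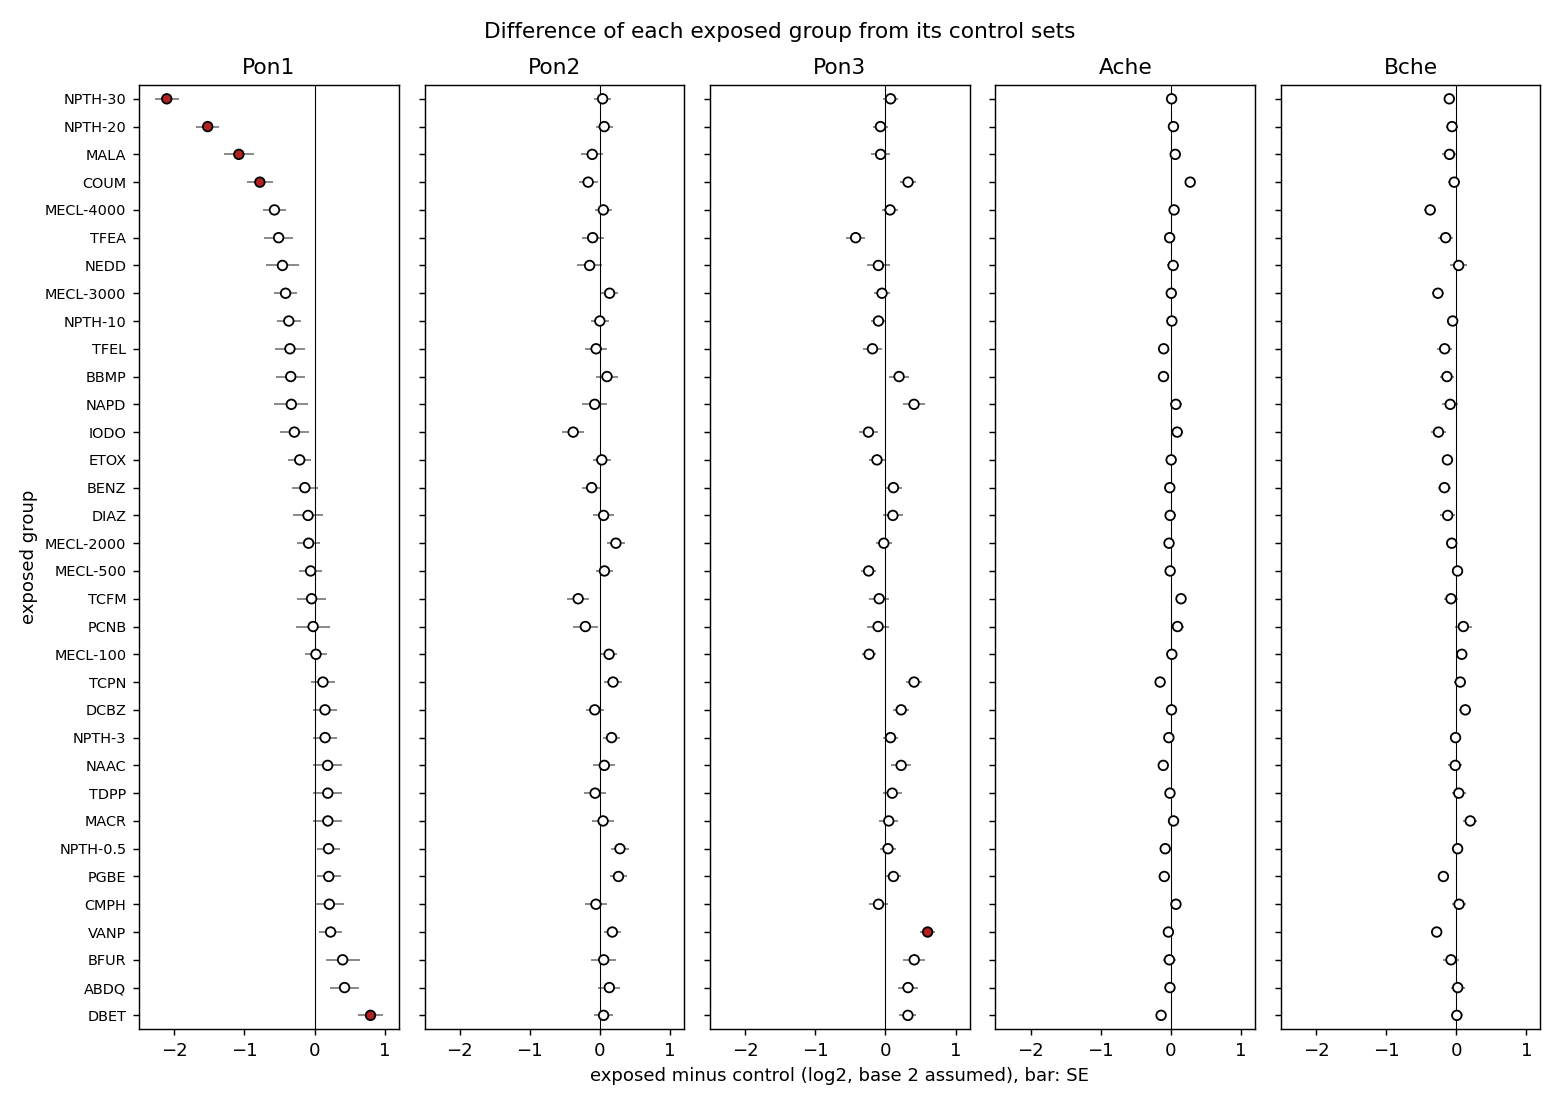
Each panel gives the log2 difference of 1 gene from its control sets (horizontal axis, bars are SE) in each of the 34 exposed groups, named by the labels' codes with ppm after the hyphen, in the order of Pon1. Filled points passed the threshold, 5 of them for Pon1, running from -2.11 to 0.80, and 1 for Pon3 at 0.60.

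The codes not named above are, for chow, ABDQ 1-amino-2,4-dibromoanthraquinone (20000 ppm), BBMP 2,2-bis(bromomethyl)-1,3-propanediol (1250 ppm), NAAC 4-nitroanthranilic acid (10000 ppm), NAPD 1,5-naphthalenediamine (2000 ppm), NEDD N-(1-naphthyl)ethylenediamine dihydrochloride (2000 ppm) and PCNB pentachloronitrobenzene (8187 ppm). For gavage they are BENZ benzene (100 mg/kg), BFUR 2,3-benzofuran (240 mg/kg), DCBZ 1,4-dichlorobenzene (600 mg/kg), TCFM trichlorofluoromethane (3925 mg/kg) and TCPN 1,2,3-trichloropropane (60 mg/kg) in corn oil and CMPH 2-chloromethylpyridine hydrochloride (250 mg/kg) in distilled water, as was MACR. For inhalation they are ETOX ethylene oxide (100 ppm), PGBE propylene glycol mono-t-butyl ether (1200 ppm), TFEA tetrafluororethane (50000 ppm) and TFEL tetrafluoroethylene (1250 ppm), with NPTH for naphthalene and MECL for methylene chloride. BFUR, NAPD, NEDD and PCNB had 3 arrays and the others 4. Among control codes, ACO stands for air, CCO and CornOil for corn oil, WCO for distilled water, and FCO and RodentChow for rodent chow.

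Pon1 was higher in mice given 1,2-dibromoethane, the reverse of naphthalene. It was at 4.36, 4.45, 4.50 and 4.50 on the exposed arrays, against 3.36 to 4.12 with a median of 3.64 on the 8 corn oil arrays, and the ranges did not overlap. The difference was 0.80 ± 0.18 and passed the threshold, as 2.67% of all genes did, but not after quantile normalization (0.64) or with each array scaled to the same SD (0.55). It also failed with the arrays of the comparison fitted alone, with every probe set tested on its own, and without any 1 of DBET replicates 1, 2 and 4 and CCO3 replicates 1, 3 and 4, at 0.73 to 0.86 over all arrays left out. Of the 18 club cell markers 8 rose and 0 fell in these lungs, and of 17 ciliated cell markers 11 rose and 0 fell. The club cell list averaged 3.72 to 4.28 on the exposed arrays, against 2.94 to 3.45 on the corn oil arrays. The 3' signal of beta-actin exceeded its 5' signal, a measure of RNA quality, by 0.71 to 1.55 on the log2 scale, against 0.60 to 0.83 on the corn oil arrays. The part of these in the Pon1 difference was not tested.

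With coumarin Pon1 was at 1.61, 2.90, 3.32 and 3.68, against 3.36 to 4.12 on the corn oil arrays. The ranges overlapped, and replicate 3, at 1.61, was well below the others of its group. The difference was -0.78 ± 0.18 and passed, as 5.69% of all genes did, but was -0.36 and did not pass without that array. It also failed with each array scaled to the same SD (-0.63), with its arrays and controls fitted alone, and without COUM replicate 4 or CCO2 replicate 3 or 4. Of the 18 club cell markers Chad rose (0.93 ± 0.16) and Scgb1a1 fell (-0.33 ± 0.09), with a median of 0.23 over the list and -0.06 over all genes. Of 12 fibroblast and smooth muscle markers 6 fell and 0 rose, among them the collagens Col3a1 (-0.87 ± 0.15) and Col1a1 (-0.80 ± 0.15), and of 12 endothelial markers 3 fell and 0 rose, Cdh5 (-0.61 ± 0.14), Tie1 (-0.53 ± 0.15) and Cldn5 (-0.52 ± 0.14). The part of these markers in the Pon1 difference was not tested, and the genes were named after their values were seen. Ache was at -0.82, -0.65, -0.28 and -0.12 with coumarin, against -0.99 to -0.48 on the corn oil arrays, a difference of 0.28 ± 0.07 in a gene below the filter, which passed the threshold with no filter.

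Pon3 was higher in mice that inhaled vanadium pentoxide, at 2.67, 2.68, 2.76 and 2.86, against 1.89 to 2.58 on the air arrays, with no overlap. The difference was 0.60 ± 0.11, which passed the threshold as 4.33% of all genes did. Pon1 (0.23 ± 0.17) and Pon2 (0.18 ± 0.12) did not pass in that group. Past the threshold, 5 of 10 macrophage markers rose and 0 fell, and of 11 alveolar type 2 markers 5 rose and 0 fell. The macrophage list averaged 1.91 to 2.04 with vanadium pentoxide, against 1.21 to 1.73 on the air arrays, and the alveolar type 2 list 5.53 to 5.74, against 4.79 to 5.27. The lists of fibroblast and smooth muscle, endothelial and alveolar type 1 markers went the other way. Other lists held genes that fell past the threshold and 0 that rose. These were the fibroblast and smooth muscle markers Tcf21 (-0.75 ± 0.13), Acta2 (-0.60 ± 0.15) and Tagln (-0.58 ± 0.13). The endothelial markers Ednrb (-0.57 ± 0.14) and Kdr (-0.55 ± 0.12) and the alveolar type 1 marker Rtkn2 (-0.54 ± 0.11) fell too. These genes were named after their values were seen, and the part of any of these cells in the Pon3 difference was not tested.

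In the methylene chloride series no gene of the 4 passed at 3000 or 4000 ppm, where 0.577% and 0.503% of all genes did. Other settings changed this: Bche passed at 4000 ppm after quantile normalization and with each array scaled (-0.37 in both), and with the control arrays pooled Bche passed at both concentrations and Pon1 at 4000 ppm. Pon1 was at 2.97, 3.04, 3.21 and 3.28 at 4000 ppm, against 3.26 to 4.68 on the air arrays, a difference of -0.57 ± 0.17. Bche was at -0.79, -0.75, -0.57 and -0.55 at 4000 ppm, against -0.66 to 0.23 on the air arrays, a difference of -0.37 ± 0.08. These Bche values are from its probe set of highest mean. The other Bche probe sets, at low levels, had lowest differences of -0.11 and -0.17 over all exposed groups. With all probe sets of the gene averaged, Bche passed in 0 groups. The fitted changes from 100 to 4000 ppm were -0.57 ± 0.12 for Pon1, 0.30 ± 0.07 for Pon3 and -0.44 ± 0.07 for Bche, all past the threshold of the trend, as 42.2% of all genes were. That of Pon3 was 0.11 and did not pass with the air arrays added at 0 ppm. Those of Pon2 and Ache were -0.02 ± 0.07 and 0.03 ± 0.04, and that of Pon2 was -0.15 and passed after quantile normalization.

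Among unexposed lungs the 14 control sets were compared with each other, which the differences that led to the choice of genes did not do. The same control arrays are 1 side of those differences, so the test is not free of the values behind the choice. None of the 4 genes differed among the sets by the moderated F test of limma (adjusted p = 1 for each), where 0.466% of all genes did. Unadjusted p-values of limma were 0.82 for Pon1, 0.377 for Pon2, 0.479 for Pon3 and 0.996 for Bche. The set means of Pon1 ran from 3.55 in CCO2 to 3.93 in ACO1, those of Pon2 from 1.97 in ACO4 to 2.34 in CCO5, those of Pon3 from 1.87 in FCO1 to 2.24 in ACO5 and those of Bche from -0.37 in CCO4 to -0.26 in CCO3. The SD within sets was 0.27 for Pon1, 0.24 for Pon2, 0.20 for Pon3, 0.18 for Bche and 0.12 for Ache. A p-value above the threshold does not show that the sets were alike.

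**Figure D5:**
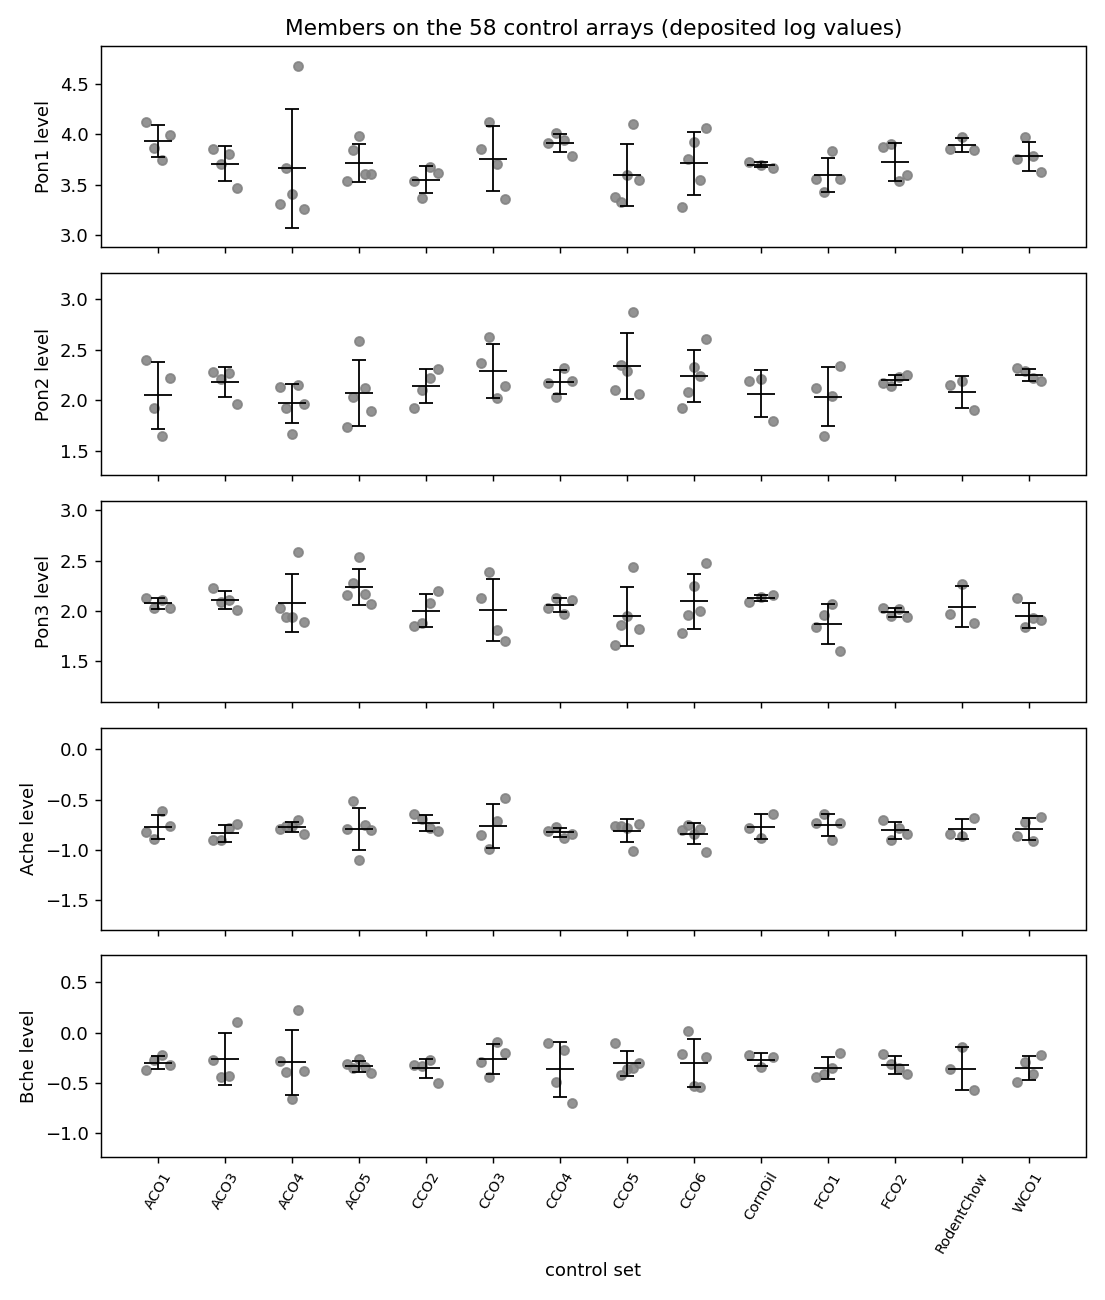
Each panel gives the level of 1 gene (vertical axis, deposited log value) on the arrays of the 14 control sets, with points for arrays and bars for the mean and SD. Pon1 lies between 3.26 and 4.68 on the 58 arrays, and its highest array is in ACO4.

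The genes whose pattern was most like each one were taken by Pearson correlation over the 58 control arrays centred on their set means, and over all arrays centred on their batch means, as a description. Over the control arrays Pon1 was most like Cetn2 (r = 0.85), Rpl7 (0.85) and Cd24a (0.84). Over all arrays it was most like Gabrp (0.75), Iyd (0.75) and Cyp4f15 (0.72), which by Spearman correlation had ranks 17, 5 and 15. Centring on batch means leaves the differences between exposed and control lungs, which led to the choice of genes, in the values over all arrays. Pon2 was most like Nptn in both (0.93 and 0.86), Pon3 most like Psma6 (0.92) over the control arrays and Cops5 (0.82) over all, and Bche most like Amy1 in both (0.83 and 0.70). Ache was most like Rab3b (0.84) over the control arrays and Efcab11 (0.83) over all. The SD of all values on an array, which ran from 1.01 to 1.44, moved with these genes over the set-centred control arrays, at r = 0.61 for Pon1, 0.78 for Pon2, 0.79 for Pon3, -0.75 for Ache and -0.13 for Bche. Its part in these likenesses was not tested.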

How the data were processed

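Lung RNA was extracted with Trizol, purified on RNeasy columns and labelled by the standard Affymetrix protocol, per the labels' protocols. What the authors deposited are logged values, read here as log2. Their base and normalization are not given in the sources used here, and every fold rests on base 2. The mean of an array was -0.00269 to 0.00334 and its SD 1.01 to 1.44. Of 45101 probe sets 34958 had 1 gene symbol, 932 several and 9211 none, and 34754 of the first matched a current name.

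A group-means model of all arrays was fitted with limma 3.58.1 in R 4.3.3, and tested on simulated data. No label names the chemical that a control set was run with, so every set of the same vehicle and batch was used. Of the air sets, ACO3 alone has its dose in mg/m3, the unit of vanadium pentoxide, and the others have ppm. The log2 difference is from the equal-weight mean of the sets. The 5 genes, the gene lists and the alternatives were chosen with earlier results of these data known. Lists are described by counts and medians. In each list and in the malathion, diazinon, tris(2,3-dibromopropyl)phosphate and 30 ppm naphthalene groups, up to 4 genes past the threshold with the largest difference were named, with exceptions stated. Alternatives were quantile normalization, scaling of each array, no filter, all probe sets of a gene averaged, other uses of the controls and each array left out.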

Additional observations from a re-analysis of the deposited data

Results flagged for a closer look

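In 13 of 210 combinations of a gene and a group of 4 or 5 arrays, a single array stood apart from the others of its group by more than Dixon's 95% critical value, which chance gives in about 1 of 20. For Pon1 these were TCFM replicate 2 (3.63, nearest other 3.94), MACR replicate 1 (3.51, nearest 4.10), BBMP replicate 4 (3.73, nearest 3.31) and the air array ACO4 replicate 4 (4.68, nearest 3.67). ACO4 replicate 4 also stood apart for Pon3 (2.58, nearest 2.03), as did DBET replicate 1 (1.80, nearest 2.45). For Pon2 it was BENZ replicate 1 (1.57, nearest 2.20).

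For Ache they were CMPH replicate 4 (-0.51, nearest -0.77) and the corn oil array CCO5 replicate 4 (-1.01, nearest -0.78). For Bche they were NPTH-0.5 replicate 1 (-0.43, nearest -0.24), NAAC replicate 2 (-0.43, nearest -0.31), BBMP replicate 1 (-0.35, nearest -0.48) and BENZ replicate 4 (-0.32, nearest -0.52).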

How the results depend on the processing

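The Pon1 difference passed the threshold at 20 and 30 ppm naphthalene and with malathion under each alternative run and with each array left out, which describes how the values move with the processing and does not support a contrast that chose the genes. With arrays left out it ran from -1.63 to -1.44 at 20 ppm, from -2.17 to -2.02 at 30 ppm and from -1.24 to -0.997 with malathion. The Pon3 difference with vanadium pentoxide did so too, from 0.56 to 0.64. No difference past the threshold changed sign. Of the 170 pairs of a gene and a group, Ache included, 29 others changed sign after quantile normalization and 26 with each array scaled, from at most 0.20 in size, among them Pon2 with diazinon (0.05, against -0.07 scaled) and Pon3 with 20 ppm naphthalene (-0.07, against 0.03 after quantile normalization). With all probe sets of a gene averaged 16 did, without arrays of low RNA integrity 4 and with controls pooled 1. In the groups other than naphthalene and the organophosphorus compounds, 3 passing pairs became 10 after quantile normalization, 7 with each array scaled to the mean SD (an alternative added after seeing the data), 5 with no filter and 10 with the control arrays pooled, and ran from 2 to 3 with arrays left out. Listed genes past the threshold at 0.5 ppm naphthalene were 0, against 1 after quantile normalization, 1 scaled and 2 pooled. At 3 ppm they were 0, against 2, 2 and 4, and at 10 ppm 7, against 13, 12 and 25. At 20 ppm 18 became 28 after quantile normalization and 43 pooled, and at 30 ppm 20 became 32 and 54. With malathion 5 became 12 after quantile normalization and 3 with its arrays alone. With arrays left out these counts ran from 4 to 7 at 10 ppm, 12 to 18 at 20 ppm, 14 to 20 at 30 ppm, 3 to 6 with malathion and 0 to 1 with diazinon. The count at 10 ppm was 4 without NPTH-10 replicate 2 or ACO3 replicate 4, that of malathion 3 without MALA replicate 3, and that of diazinon 1 without DIAZ replicate 3. The Pon3 trend with methylene chloride was 0.11 with air arrays at 0 ppm. Likeness with arrays scaled was 0.58 for Pon1 with Cetn2, 0.77 and 0.72 for Pon2 with Nptn, 0.69 for Pon3 with Psma6 and 0.73 with Cops5, and 0.72 for Ache with Rab3b and with Efcab11. By Spearman correlation it was 0.63 for Pon1 with Gabrp, 0.81 for Pon2 with Nptn, 0.86 for Pon3 with Psma6 and 0.62 for Bche with Amy1. Genes that differed among control sets numbered 63 (844 at an unadjusted p under 0.05), against 842 after quantile normalization, 426 scaled and 41 to 111 with arrays left out, with 41 without WCO1 replicate 3, 111 without FCO1 replicate 4 and 106 without ACO4 replicate 4. Except where an array was left out, the cause was not tested. No paired analysis was possible because replicate numbers were given in accession order and pair no arrays. Signal over background was not analysed here, and for Ache and Bche, near or below the median of all values, small differences may not have been detectable.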

Other observations

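Liver markers stood highest on 3 arrays of different groups. The mean level of 10 markers was 3.02 on ACO4 replicate 4, 2.60 on DIAZ replicate 3 and 2.10 on BBMP replicate 3, with albumin at 4.93, 6.32 and 5.49. Pon1 was at 4.68, 3.80 and 3.31 on the same arrays. On the 4 arrays of 1,2-dibromoethane, where Pon1 was at 4.36 to 4.50, the liver markers averaged -0.40 to -0.03. The part of liver RNA in these Pon1 levels was not tested.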
